A study of Mus musculus with 82 samples.

Results

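The 40 genes described here encode collagens, laminins, the linkers and proteoglycans that join them in basement membranes, other matrix glycoproteins, and 2 integrin subunits that bind laminin. They were taken as a fixed list of gene symbols by a rule that names no measured value, and all 40 were matched among the 48795 gene identifiers of the count table. The list itself was drawn up with results of these data known. By role they comprise 8 fibrillar collagen genes, 3 of type IV collagen, 3 of type VI collagen, 6 other collagens, 7 laminin chains, 4 basement membrane linkers, 4 of the fibronectin, fibulin and fibrillin group, 3 small leucine-rich proteoglycans and 2 laminin receptor subunits. RNA was sequenced from mouse brain tissue captured by laser, either as RNA pulled down with ribosomes (IP) or as the cleared lysate before the pull-down (input), in 82 libraries of 18 groups. After stroke in the cortex or in the white matter there were 5 IP libraries in each of 5 numbered zones, and 3 IP and 3 input libraries of zones 1 to 3 captured together. Animals labelled sham, called uninjured here, gave 5 IP and 5 input libraries per region and served as the comparison for both. The labels give the IP material as polyA RNA and the input material as total RNA.

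The series describes the IP libraries as enriched for astrocytes, and the pull-down followed the published method that immunoprecipitates an epitope-tagged ribosomal protein. The labels name no strain, genotype, driver of the tag, age, sex or time after stroke, and they do not say how far each zone lay from the lesion. They do not tie libraries to animals, so every p-value below measures the spread between libraries, which may in part be technical. In bulk RNA of this kind, fewer cells of a type and less RNA per cell cannot be told apart.

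A basement membrane is a thin sheet of matrix that underlies the endothelium and wraps the mural cells of brain vessels, and a second such sheet lies under the astrocyte endfeet at the vessel wall and the brain surface. Laminin trimers, each made of an alpha, a beta and a gamma chain, self-assemble on integrins and dystroglycan, and nidogens and the proteoglycans perlecan and agrin link them to a network of type IV collagen. Fibrillar collagens, fibronectin and small leucine-rich proteoglycans such as biglycan belong instead to interstitial matrix, which is scarce in uninjured brain parenchyma and is known to accumulate in scars after injury.

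Counts outside 6 genes, most of them ribosomal RNA genes, which held between 67.3% and 94.3% of all counts, ran from 389889 to 5708700 per library (median 2487444.5), and levels are given as CPM, the count per 1000000 of these counts. All 12 astrocyte markers were counted in every group, input included, so their presence is no check of enrichment. They summed to 5264 to 7703 (median 6863) CPM in cortical zone 1 IP and 3987 to 7752 (median 4084) CPM in uninjured cortex IP. In uninjured cortex input they summed to 1490 to 3348 (median 3261) CPM. Neuronal RNA was present too: 9 neuron markers summed to 8541 to 14590.2 (median 9641) CPM in cortical zone 1 IP and 9014 to 15042 (median 11873) CPM in uninjured cortex IP. Of 5 shallow libraries, with under 10000 detected genes or under 1000000 of these counts, 1 was of cortex (the first replicate of zone 1) and 4 were of white matter: replicates 1 and 5 in zone 1, replicate 1 in zone 3 and replicate 3 in zone 5. Total counts ran from 2518604 to 28245109, and since the cDNA was amplified and no molecular identifiers are named, small counts are less certain than their number implies.

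Across the zones of the cortex the list was highest in zone 1 and by zone 3 lay within the spread of the uninjured libraries. The summed CPM of the 40 members was 1118 ± 299.6 in zone 1, 574 ± 109 in zone 2, 424 ± 44.9 in zone 3, 387 ± 43.1 in zone 4, 329 ± 21.0 in zone 5 and 378 ± 75.8 in uninjured cortex (SD, n = 5 each). In single libraries the sum was 934, 1457, 1095, 1369 and 735 in zone 1, against 405, 434, 319.8, 454 and 278 in uninjured cortex, and the groups did not overlap. The mean of log2(CPM + 1) over the 40 members, which gives every gene the same weight, was 3.46 ± 0.36 in zone 1, 3.11 ± 0.24 in zone 2, 2.69 ± 0.19 in zone 3, 2.58 ± 0.11 in zone 4, 2.33 ± 0.08 in zone 5 and 2.58 ± 0.26 in uninjured cortex. These are descriptions with no test, as the list was drawn up with results of these data known.

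Of the 40 members, 29 had their highest group mean among the 6 cortical IP groups in zone 1, 9 in zone 2 and 2 in zone 3. Over all 24949 genes with at least 10 counts, 34.2% had their highest mean in zone 1, 13.03% in zone 2 and 10.9% in zone 3. The members highest in zone 2 included Lama2, a laminin alpha chain, and Col5a1, a minor chain of collagen fibrils, and the 2 highest in zone 3 were Col8a1 and Col11a2. In white matter 10 members were highest in zone 1, 9 in zone 2, 7 in zone 3, 6 in zone 4, 3 in zone 5 and 5 in uninjured tissue. The shares over all 23942 genes there were 22.7% in zone 1, 18.8% in zone 2, 14.3% in zone 3, 16.0% in zone 4, 12.9% in zone 5 and 15.4% in uninjured tissue, so the white matter counts lay near the background and are no result about the members.

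**Figure D1:**
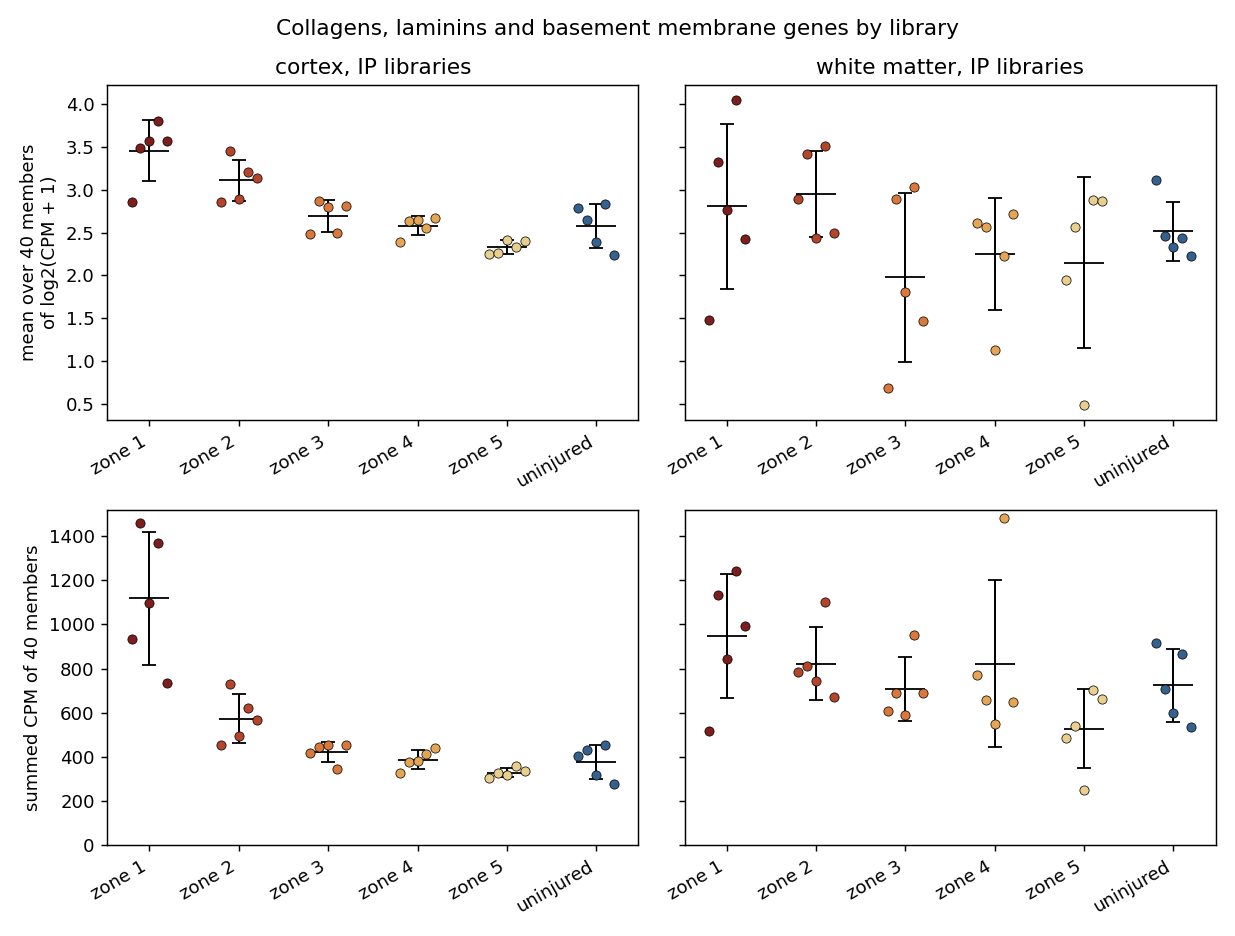
Mean of log2(CPM + 1) over the 40 members (top) and their summed CPM (bottom) in each IP library, for cortex (left) and white matter (right); points are libraries, and bars are the mean ± SD of 5. The 5 cortical zone 1 libraries all lie above the 5 uninjured ones in both measures, while the white matter groups overlap. In the mean, the margin between the shallow cortical zone 1 replicate 1 and the highest uninjured library is narrow.

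In white matter the libraries of every zone overlapped the uninjured ones in both measures. The summed CPM was 947 ± 282 in zone 1, 822 ± 164 in zone 2, 706 ± 146 in zone 3, 823 ± 378 in zone 4, 529 ± 179.6 in zone 5 and 725 ± 165 in uninjured white matter (SD, n = 5 each). The mean log2 level was 2.81 ± 0.96 in zone 1, 2.95 ± 0.50 in zone 2, 1.97 ± 0.99 in zone 3, 2.25 ± 0.65 in zone 4, 2.15 ± 1.00 in zone 5 and 2.51 ± 0.35 in uninjured white matter. Single libraries decided many of these means: 1 library held more of a member's CPM than the other 4 together for 25 members in zone 1 and 33 in zone 3, against 23 in uninjured white matter, while in cortex this was so for 15 members in zone 1 and 5 in uninjured tissue. One such case was the fibrillar collagen gene Col1a2 in zone 3 of white matter, with 550.3, 6.75, 0, 3.79 and 1.88 CPM. Its first library, one of the shallow ones, held nearly all of that group's Col1a2.

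Too few counts were found for 1 member only. Lum, the small leucine-rich proteoglycan lumican, had 12 counts over the 6 white matter IP groups and under 10 in each, while no member fell under that limit in cortex. Among members with few counts in uninjured cortex, Col3a1, which with type I collagen builds the fibrils of scar tissue, had 2.56, 0.525, 0.333, 6.17 and 6.27 CPM in zone 1 and 0, 0, 0.632, 0 and 0.497 CPM in uninjured cortex. With Col1a1, Col5a2, Col5a3, Col4a5, Col6a3, Col8a1, Col16a1, Col18a1, Lama1, Nid2, Fbln1, Dcn and Lum it did not pass the count filter for cortical zone 1 and was not tested there.

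**Figure D2:**
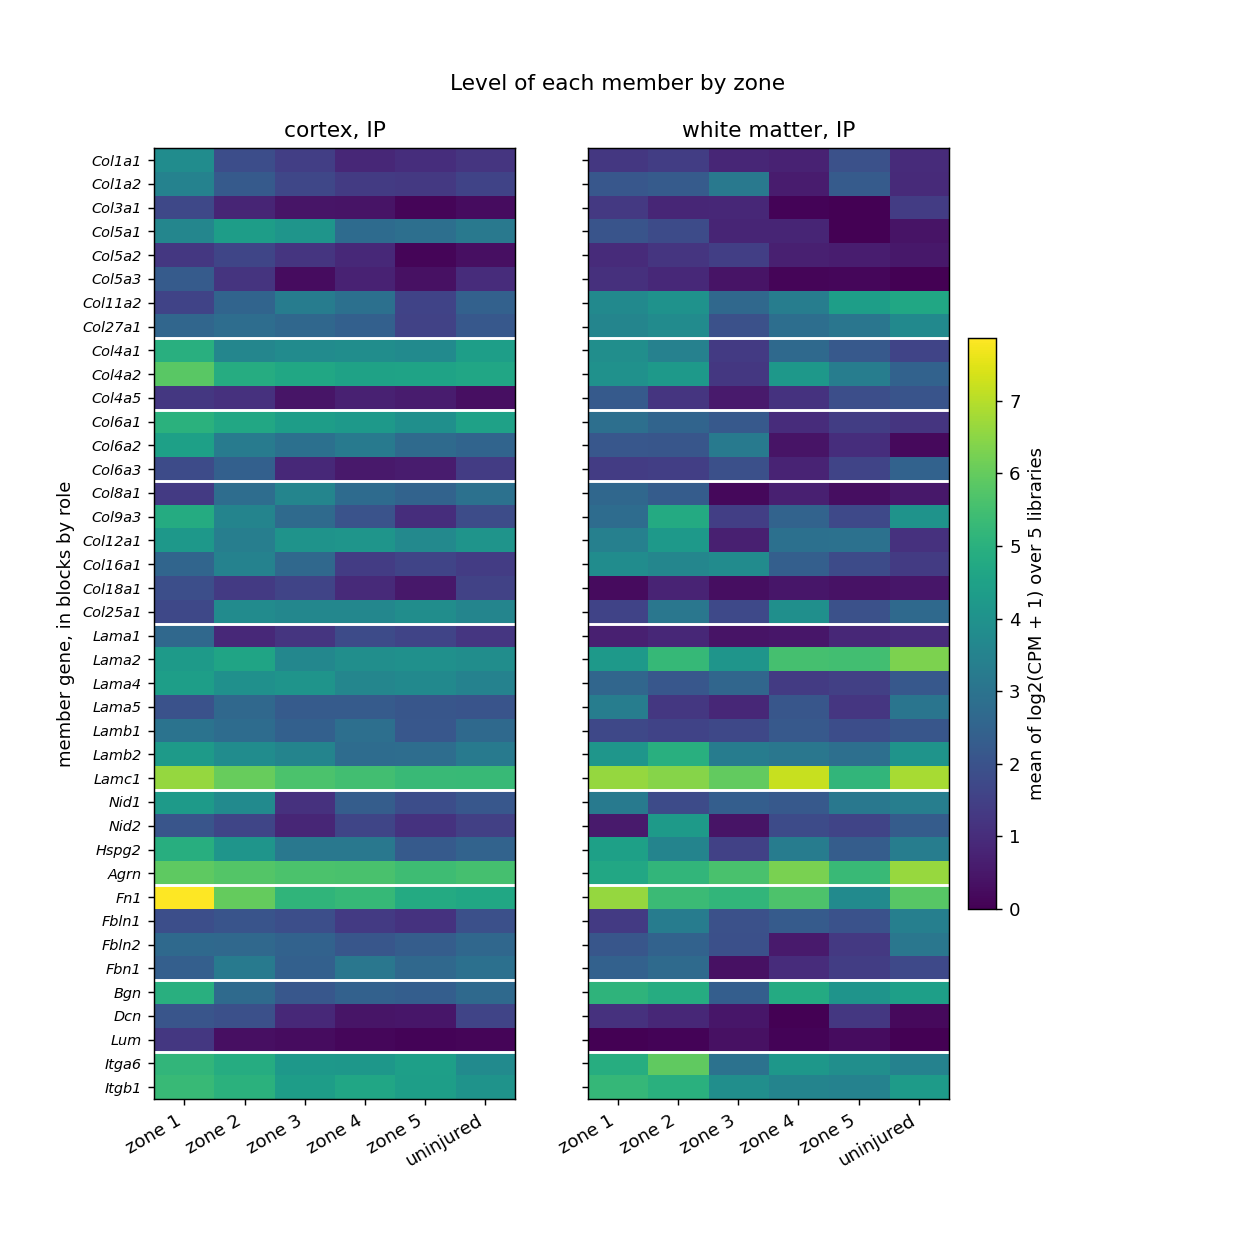
Mean of log2(CPM + 1) over 5 libraries for each of the 40 members (down the page, in blocks by role) in the 5 stroke zones and uninjured tissue, for cortex (left) and white matter (right). Fn1 in cortical zone 1 is the brightest cell, and Lamc1 and Agrn are high in every group of both regions.

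Scaled to the length of their annotated exons, Fn1 led the list in zone 1 of cortex at 23.5 ± 15.6 CPM per kilobase, followed by Col9a3 at 12.5 ± 13 and Lamc1 at 12.3 ± 3.90 CPM per kilobase (SD, n = 5). The order in uninjured cortex was Col6a1 at 5.20 ± 1.99, Agrn at 5.12 ± 1.49 and Lamc1 at 4.83 ± 1.44 CPM per kilobase, with Fn1 at 2.59 ± 2.02. In uninjured white matter Lamc1, at 14.6 ± 6.02, and Agrn, at 11.3 ± 4.31 CPM per kilobase, stood at the head. Neighbours in each of these orders differed by less than their spread between libraries. Fn1 made up 24.5% of the list's summed CPM in zone 1, against 8.0% in uninjured cortex.

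The first comparison the design implies is each zone against uninjured tissue of the same region. In cortical zone 1, 7 of 26 tested members rose and 0 fell: Fn1, Hspg2, Lamc1, Bgn, Col9a3, Col1a2 and Col6a2. Over all genes tested, 4.81% rose and 0.495% fell by the same rule (edgeR quasi-likelihood test, Benjamini-Hochberg adjusted p under 0.05). The median log2 fold change was 1.09 over the 26 tested members and 0.07 over all 12526 genes tested. Because a member could pass the count filter through the group in which it was high, the tested members are not a neutral sample of the 40.

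By role, the called members were 1 of 4 tested fibrillar collagens, 0 of 2 type IV and 1 of 2 type VI collagens, 1 of 3 other collagens, 1 of 6 laminin chains, 1 of 3 linkers, 1 of 3 in the fibronectin group, 1 small leucine-rich proteoglycan of 1 and 0 of 2 receptor subunits. Summed over all members of a role, laminin chains had 194 ± 35.1 CPM in zone 1 and 86.1 ± 20.2 CPM in uninjured cortex. Linkers had 118 ± 21.9 CPM in zone 1 and 58.9 ± 14.3 CPM in uninjured cortex, and the receptor subunits 84.2 ± 37.0 CPM in zone 1 and 32.6 ± 12.5 CPM in uninjured cortex. For these 3 roles, and for the fibronectin group with 292 ± 183 CPM in zone 1 and 45.6 ± 21.0 CPM in uninjured cortex, every zone 1 library lay above every uninjured one. The fibrillar collagens (94.9 ± 80.9 CPM in zone 1 and 23.7 ± 9.14 CPM in uninjured cortex) and the type IV collagens (115 ± 84.7 CPM in zone 1 and 46.6 ± 13.1 CPM in uninjured cortex) overlapped between the groups.

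Fibronectin, the glycoprotein that plasma and many cells deposit in wounds and that cells grip through integrins, showed the largest rise in CPM of the list. Fn1 had 241, 574, 290.3, 169 and 96.9 CPM in the 5 zone 1 libraries, against 25.99, 22.7, 21.5, 71.1 and 9.95 CPM in the 5 uninjured ones. The groups did not overlap, and the uninjured library nearest to zone 1 was replicate 4. The log2 fold change was 3.10 ± 0.48 (SE; adjusted p = 0.000406). Of its relatives, Fbln2 and Fbn1 were tested and did not pass, and Fbln1 did not pass the count filter in this comparison.

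Hspg2 encodes perlecan, the large heparan sulphate proteoglycan of basement membranes. It stood at 20.5, 28.7, 19.3, 63.2 and 31.7 CPM in zone 1, against 5.997, 2.84, 5.69, 4.18 and 5.47 CPM in uninjured cortex. Every zone 1 library lay above every uninjured one, and the log2 fold change was 2.72 ± 0.53 (adjusted p = 0.00296). Lamc1 encodes the laminin gamma 1 chain, the gamma chain of most laminin trimers, and had 76.9, 92.5, 82.5, 157 and 98.1 CPM in zone 1, against 36.0, 53.0, 36.7, 50.4 and 23.9 CPM in uninjured cortex. Here too the groups did not overlap, at a smaller log2 fold change of 1.31 ± 0.31 (adjusted p = 0.0144). The call of Lamc1 was lost without uninjured replicate 1 (1.27), replicate 3 (1.28) or replicate 5 (1.11).

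Agrn, the agrin gene, whose heparan sulphate proteoglycan also binds laminin, was among the highest members and did not pass. Agrn had 38.5, 60.8, 74.8, 78.8 and 53.8 CPM in zone 1 and 58.0, 54.0, 27.2, 39.6 and 59.2 CPM in uninjured cortex, with overlap and a log2 difference of 0.36 ± 0.32 (adjusted p = 0.653). Of the other linkers, Nid1, nidogen 1, averaged 20.4 ± 11.8 CPM in zone 1 and 4.10 ± 3.26 CPM in uninjured cortex and did not pass, and Nid2, nidogen 2, was not tested. Of the 6 laminin chains tested, only Lamc1 passed. Neither of the 2 type IV collagen genes tested passed. Col4a2, a chain of the main basement membrane network, had 20.5, 84.8, 42.9, 122 and 62.7 CPM in zone 1 and 25.0, 29.4, 21.5, 33.4 and 14.9 CPM in uninjured cortex. Its log2 difference of 1.41 ± 0.42 missed the threshold (adjusted p = 0.0545) and passed it without zone 1 replicate 1 (1.62) or replicate 3 (1.54).

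The remaining members that rose in zone 1 belong to interstitial matrix or to collagens outside the type IV network. Bgn, biglycan, a small proteoglycan that binds collagen fibrils, had 7.69, 46.8, 41.9, 66.0 and 23.7 CPM in zone 1, against 5.00, 2.84, 4.42, 12.1 and 5.47 CPM in uninjured cortex. Zone 1 replicate 1, the shallow library, lay within the uninjured range on only 3 counts, and the log2 fold change was 2.59 ± 0.56 (adjusted p = 0.00780). Col9a3, a chain of type IX collagen, which binds fibril surfaces, had 43.6, 132, 2.66, 42.3 and 19.2 CPM in zone 1, against 4.00, 1.89, 3.16, 5.41 and 0.497 CPM in uninjured cortex, with a log2 fold change of 3.89 ± 0.80 (adjusted p = 0.00496). Zone 1 replicate 3 of Col9a3 lay within the uninjured range, and replicate 2 held more of it than the other 4 together; without that library the log2 fold change was 3.00. Fn1, Hspg2, Bgn and Col9a3 kept their call in each of the 10 fits that left out 1 library.

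Col1a2 encodes the alpha 2 chain of type I collagen, the commonest fibrillar collagen. It had 0, 10.3, 25.3, 68.4 and 7.64 CPM in zone 1, against 1.00, 2.84, 1.26, 5.66 and 0.995 CPM in uninjured cortex, and its log2 fold change was 3.19 ± 0.87 (adjusted p = 0.0362). The shallow zone 1 replicate 1 held none, and replicate 4 held more than the other 4 together. Its call was lost without zone 1 replicate 3 (3.16) or 4 (2.15) and without uninjured replicate 1 (3.02), 2 (3.21), 3 (3.03) or 5 (2.94). The gene of its partner chain, Col1a1, also had its highest value in zone 1 replicate 4, at 0, 7.53, 19.6, 143 and 21.3 CPM in zone 1 and 3.00, 0.947, 1.90, 0.984 and 0.497 CPM in uninjured cortex, and did not pass the count filter.

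Col6a2, a chain of the beaded filaments of type VI collagen, had 71.8, 5.08, 43.6, 19.7 and 11.7 CPM in zone 1, against 7.996, 2.84, 6.95, 2.95 and 4.98 CPM in uninjured cortex. Its log2 fold change was 2.42 ± 0.69 (adjusted p = 0.0446), its highest library was the shallow zone 1 replicate 1, and zone 1 replicate 2 lay within the uninjured range. The call was lost without zone 1 replicate 1 (1.93) or 3 (2.18) and without each of the uninjured replicates 1 to 5, where the log2 fold change lay between 2.23 and 2.61. Left out of the fit, the shallow zone 1 library changed the calls to 9 of 32 tested members: Col6a2 was lost, and Col1a1, Col4a2 and Itgb1 were gained.

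The promoter windows of 3 of the risen members are shown, as the called genes whose windows hold bases ahead of the start. They are the bases before the annotated start on GRCm38.p6, from RefSeq, at chr4:137468553-137468768 on the plus strand for Hspg2, chrX:73483351-73483600 on the plus strand for Bgn and chr10:76623631-76623880 on the minus strand for Col6a2, written 5′ to 3′. Capitals mark each GC box searched, GGGCGG or its reverse complement CCGCCC.
Hspg2: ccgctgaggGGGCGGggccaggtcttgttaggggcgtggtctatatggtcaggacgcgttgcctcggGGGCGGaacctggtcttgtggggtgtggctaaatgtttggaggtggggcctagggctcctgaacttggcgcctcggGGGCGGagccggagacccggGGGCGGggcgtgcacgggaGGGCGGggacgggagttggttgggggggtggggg
Bgn: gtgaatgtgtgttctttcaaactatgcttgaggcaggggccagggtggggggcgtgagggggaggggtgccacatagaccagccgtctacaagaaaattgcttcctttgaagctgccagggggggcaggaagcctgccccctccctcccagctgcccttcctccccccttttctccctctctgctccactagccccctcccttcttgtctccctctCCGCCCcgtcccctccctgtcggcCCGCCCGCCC
Col6a2: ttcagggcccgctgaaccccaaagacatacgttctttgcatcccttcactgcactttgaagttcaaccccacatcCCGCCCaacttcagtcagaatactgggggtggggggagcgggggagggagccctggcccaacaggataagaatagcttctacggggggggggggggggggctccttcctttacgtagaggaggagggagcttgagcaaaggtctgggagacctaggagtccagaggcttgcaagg

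Hspg2 held 5 GC boxes in its window, Bgn 3 and Col6a2 1, with overlapping boxes counted separately, as at the end of the Bgn window. For Col6a2 another RefSeq start had a window too, of which the cut left 24 bases with 0 GC boxes. Windows of 28 of the 40 members were found, 32 in all. Of these 32, 24 held a GC box in the full 250 bases ahead of the RefSeq start, without the cut. The share was 32.7% over all 32851 windows and 42.6% over the 21263 windows of protein-coding genes. In these 250 bases a CCAAT box, read as CCAAT on either strand, was present in 10 member windows, against 33.9% of all windows. The TATA sequence TATAAA, read there on both strands, was present in 2 member windows, against 12.4%. Such matches describe the sequence and do not show that a factor binds there. Fn1, Lamc1 and Col9a3 had no window in the table.

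**Figure D3:**
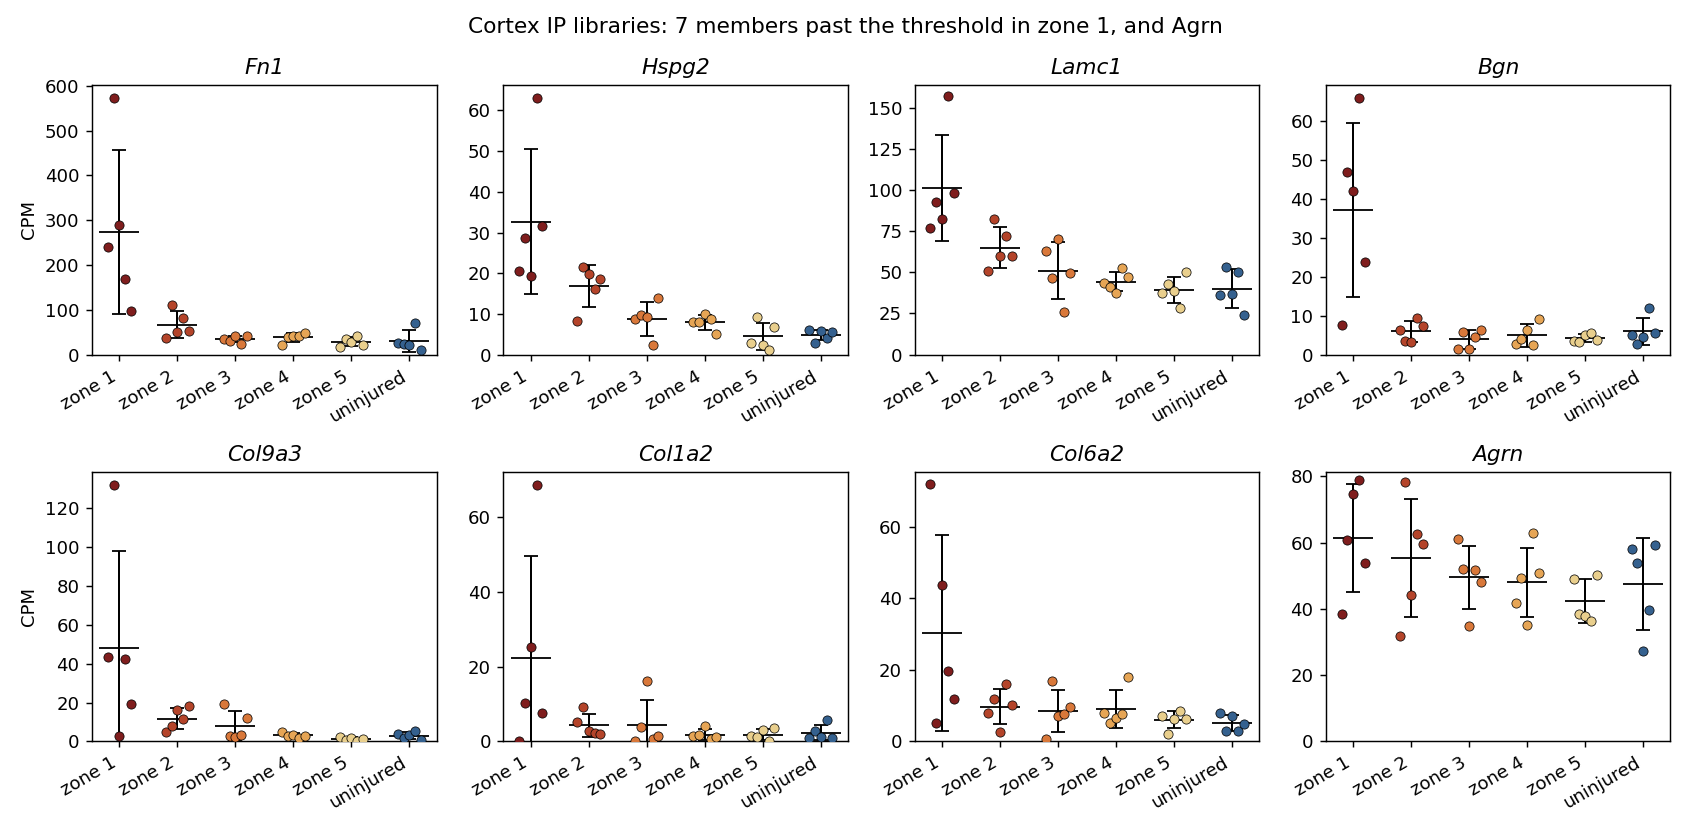
CPM in each cortical IP library for the 7 members that rose in zone 1 and for Agrn, by zone and in uninjured tissue; points are libraries, bars the mean ± SD of 5, and each panel has its own scale from 0. Fn1, Hspg2 and Lamc1 in zone 1 lie above all uninjured libraries, Bgn, Col9a3, Col1a2 and Col6a2 have at least 1 zone 1 library within or below the uninjured range, and Agrn overlaps throughout.

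In cortical zone 2 fewer members passed than in zone 1. Of 24 tested members 3 rose and 0 fell, where 3.12% of all genes tested rose and 0.512% fell: Hspg2, Col9a3 and Itgb1, the integrin beta 1 subunit shared by most laminin and collagen receptors. Hspg2 had 8.37, 21.6, 19.8, 16.0 and 18.7 CPM in zone 2, above all 5 uninjured libraries listed above, with a log2 fold change of 1.81 ± 0.42 (adjusted p = 0.00803). Col9a3 had 4.71, 7.93, 16.1, 11.6 and 18.3 CPM, at 1.90 ± 0.54 (adjusted p = 0.0390), and only its lowest library fell within the uninjured range. Itgb1 had 25.6, 31.7, 39.5, 17.5 and 52.5 CPM in zone 2, against 16.0, 12.3, 15.8, 23.4 and 12.4 CPM in uninjured cortex, with 1 library within the uninjured range and a log2 fold change of 1.05 ± 0.30 (adjusted p = 0.0468). Its highest cortical mean was nonetheless in zone 1, at 48.0 CPM, where it did not pass with edgeR but did with DESeq2.

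The 2 members with the highest mean over both groups among those that did not pass in zone 2 were Lamc1, with 50.7, 82.4, 59.7, 72.1 and 59.9 CPM and a log2 difference of 0.72 ± 0.23 (adjusted p = 0.0831), and Agrn, with 0.26 ± 0.25 (adjusted p = 0.694). Fn1, picked out after its values were seen, had 38.2, 112, 51.4, 80.8 and 53.3 CPM in zone 2, of which 3 lay below the highest uninjured library, and a log2 difference of 1.11 ± 0.45 (adjusted p = 0.251). The call of Col9a3 was lost without zone 2 replicate 3 (1.76), 4 (1.88) or 5 (1.72) or uninjured replicate 2 (1.79), 3 (1.96) or 5 (1.59). That of Itgb1 was lost without zone 2 replicate 2 (1.07), 3 (0.98) or 5 (0.86) or uninjured replicate 1 (1.09), 2 (0.96), 3 (1.09) or 5 (0.93). In the other direction, 5 members passed without zone 2 replicate 1 and 6 without uninjured replicate 4.

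Zones 1 and 2 share the uninjured libraries, so the step between them was tested directly. Of 31 members tested, Fn1 alone was higher in zone 1 than in zone 2 and none was lower, where 0.161% of all genes tested were higher and 0.0963% lower. With the Fn1 values given above for both zones, the log2 fold change of zone 1 over zone 2 was 1.91 ± 0.39 (adjusted p = 0.0409). Only 1 zone 2 library exceeded the lowest zone 1 library. The call was lost in 8 of the 10 fits that left out 1 library (zone 1 replicates 1 to 4 and zone 2 replicates 1, 3, 4 and 5), with log2 fold changes from 1.47 to 2.16 over the 10, and 2 members passed without zone 1 replicate 5. Bgn, picked out after its values were seen, averaged 37.2 ± 22.3 CPM in zone 1 and 5.97 ± 2.64 CPM in zone 2, next to 5.96 ± 3.55 CPM in uninjured cortex, and its difference between the zones did not pass (2.58 ± 0.57, adjusted p = 0.0616). Without the shallow zone 1 replicate 1, Bgn passed in place of Fn1.

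Beyond zone 2 no member passed with edgeR or with DESeq2. In zone 3, 0 of 23 tested members were called, where 0.0405% of all genes were, and 1 member had an unadjusted p under 0.05. In zones 4 and 5, with 22 and 21 members tested, 0% of all genes passed the edgeR test, and 832 and 694 genes had an unadjusted p under 0.05, of which 0 and 1 were members (DESeq2 called 16 and 0 genes). Lamc1 averaged 51.1 ± 17.2 CPM in zone 3, 44.4 ± 5.88 in zone 4 and 39.5 ± 7.94 in zone 5, next to 39.99 ± 11.9 in uninjured cortex, and its log2 differences were 0.34 ± 0.25, 0.09 ± 0.22 and −0.06 ± 0.21. For Agrn the log2 differences in the same order were 0.07 ± 0.23, −0.02 ± 0.22 and −0.19 ± 0.20. Hspg2 averaged 8.77 ± 4.18 CPM in zone 3, 7.94 ± 1.83 in zone 4 and 4.46 ± 3.42 in zone 5, against 4.84 ± 1.31 in uninjured cortex.

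Other genes of the same pathway were counted from lists that hold no member. Among collagen-processing genes 2 of 18 tested rose in cortical zone 1 and 0 fell: P4ha3, a subunit of a collagen prolyl hydroxylase, at 4.12 ± 0.72 (adjusted p = 0.00117), and Plod1, a lysyl hydroxylase, at 2.69 ± 0.49 (adjusted p = 0.00185). Among matrix receptors outside the list 7 of 17 rose and 0 fell, led by the integrin subunit gene Itgb5 at 3.11 ± 0.34 (adjusted p = 7.81e-06), the syndecan gene Sdc3 at 1.53 ± 0.25 and Cd44, the hyaluronan receptor, at 5.34 ± 0.86. Of 8 further collagens and laminins Col20a1 (3.21 ± 0.72) and Col11a1 (2.5 ± 0.60) rose. Of 12 other matrix glycoproteins Sparc alone rose, at 2.46 ± 0.21 (adjusted p = 3.36e-07); its product binds collagen. In zone 2 the corresponding counts were 1 of 15 for collagen processing (P4ha3, 2.76 ± 0.48), 3 of 16 for matrix receptors, 2 of 7 for further collagens and laminins and 1 of 11 for other glycoproteins (Sparc, 1.6 ± 0.18), with 0 falling in each.

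Markers of other cells moved with zone 1 of the cortex. All 13 tested microglia and macrophage markers of 14 rose, with a median log2 fold change of 3.81, and their summed CPM was 1536 to 3067 (median 2593) in zone 1, against 123 to 281 (median 203) in uninjured cortex. Of oligodendrocyte markers 7 of 8 rose, and they summed to 5168 to 8838 (median 8008) CPM in zone 1, against 1740.3 to 2489 (median 1917) CPM in uninjured cortex. Of oligodendrocyte precursor markers 4 of 5 rose. Endothelial markers summed to 272 to 508 (median 325) CPM in zone 1, against 115 to 276 (median 134) in uninjured cortex, and 2 of 11 tested rose (Vwf at 2.86 ± 0.49 and Cdh5 at 2.29 ± 0.49). Mitochondrial genes took 4.92 to 9.77% of counts outside the 6 genes in zone 1, against 10.6 to 21.1% in uninjured cortex. None of 6 tested mural markers, none of 4 tested fibroblast markers and none of 9 neuron markers passed, nor did the 1 red blood cell marker tested. Mural markers summed to 154 to 454 (median 361) CPM in zone 1, against 169 to 397 (median 188) CPM in uninjured cortex. The 12 fibroblast markers outside the list summed to 25.6 to 176 (median 79.8) CPM in zone 1, with Aldh1a2 and Tcf21 at 0, against 35.4 to 122 (median 48.3) CPM in uninjured cortex, with Crabp2, Slc22a2 and Tcf21 at 0. Of 12 astrocyte markers 2 rose and 1 fell. In zone 2, 12 of 13 microglia and macrophage, 6 of 8 oligodendrocyte, 3 of 5 precursor, 5 of 12 astrocyte and 2 of 10 endothelial markers rose. The part of these cells in the rise of the matrix genes was not tested.

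In white matter no member passed edgeR's test against uninjured tissue in any zone. In zone 1, 0 of 21 tested members were called, where 0.45% of all genes were, and in zone 2, 0 of 22, where 0.941% were. The 47 genes called in zone 1 became 5 to 275 with 1 library left out (5 without uninjured replicate 2, 275 without the shallow zone 1 replicate 1), 410 without both shallow libraries and 589 with DESeq2, with 0 members among them each time. DESeq2 called 591 genes in zone 2 in place of 99. In zone 4, 0 of 21 members were called, where 0.0666% were, and in zones 3 and 5, with 17 and 19 members tested, 0% of all genes were called, while 1054 and 931 genes had an unadjusted p under 0.05. Members with an unadjusted p under 0.05 numbered 2 in zone 1, 4 in zone 2, 2 in zone 3, 1 in zone 4 and 0 in zone 5, and DESeq2 called 1 member in zone 2 (Agrn), 1 in zone 4 (Col4a2) and 0 in the other zones. Fn1, the highest member in white matter zone 1, had 44.0, 244, 22.02, 269 and 137 CPM there, against 46.9, 56.9, 31.2, 148 and 43.5 CPM in uninjured white matter. The zone 1 range spanned the uninjured one, and the log2 difference was 0.80 ± 0.72 (adjusted p = 0.670). Lamc1, at 274, 92.3, 72.9, 124 and 38.2 CPM in zone 1 and 95.4, 104, 193, 147 and 65.1 CPM in uninjured white matter, gave 0.29 ± 0.70 (adjusted p = 0.902).

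Agrn had 21.5, 60.9, 36.6, 37.1 and 30.5 CPM in white matter zone 2, against 96.2, 168, 59.2, 88.5 and 112 CPM in uninjured white matter, and a single zone 2 library lay above the lowest uninjured one. Its log2 difference of −1.79 ± 0.52 did not pass (adjusted p = 0.0959). Lamc1 gave −0.55 ± 0.48 in that zone and −0.41 ± 0.70, 0.18 ± 0.43 and −0.89 ± 0.86 in zones 3 to 5, where Agrn gave 0.47 ± 0.88, 0.46 ± 0.72 and 0.48 ± 0.92. Of other pathway genes in white matter zone 1, Sparc (3.41 ± 0.75, adjusted p = 0.0425) and Sdc3 (2.92 ± 0.67, adjusted p = 0.0498) rose, 1 of 14 glycoproteins and 1 of 14 receptors, and in zone 2 none of the 4 pathway lists held a called gene. Microglia and macrophage markers rose in 4 of 13 tested in each of these zones, with summed CPM of 1002 to 3844 (median 3303) in zone 1 and 955 to 2101 (median 1354) in zone 2, against 233 to 406 (median 283) in uninjured white matter. None of 7 endothelial, 6 mural, 3 fibroblast or 8 oligodendrocyte markers tested passed in zone 1. Oligodendrocyte markers summed to 7553 to 33676 (median 21351) CPM in zone 1 and 23379 to 48515 (median 27702) in zone 2. Neuron markers summed to 477 to 12681 (median 4760) CPM in zone 1 and 2123 to 6801 (median 3134) in zone 2. In uninjured white matter, oligodendrocyte markers summed to 29837 to 51861 (median 47293) CPM and neuron markers to 646 to 1813 (median 947) CPM. The part of these cells in the matrix gene levels was not tested.

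**Figure D4:**
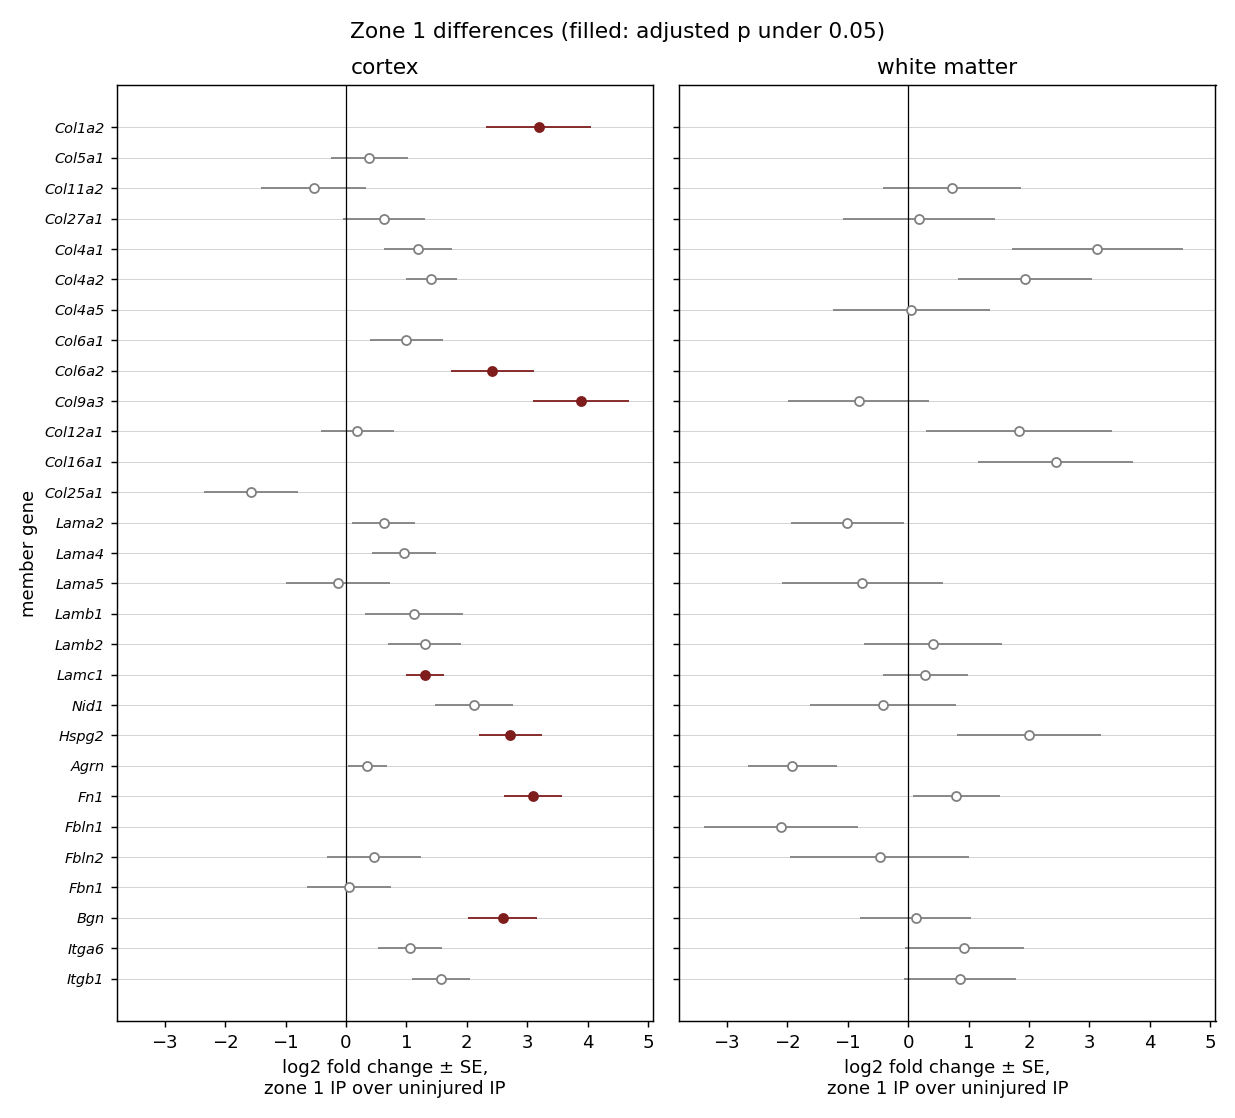
Log2 fold change of zone 1 IP over uninjured IP for members tested in cortex (left) or white matter (right), with SE as horizontal bars on a common axis; filled points passed an adjusted p of 0.05. The 7 filled points are all in cortex and positive, and the white matter bars are longer.

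Whether the zone 1 response differed between the regions was tested as the cortical difference minus the white matter difference. No member passed among 36 tested, where 1.88% of all genes did, and 5 members had an unadjusted p under 0.05. A difference in response between the regions was thus not shown by edgeR for any single member, while DESeq2 called 3 (Agrn and Col9a3 higher, Col8a1 lower). Fn1 gave 2.33 ± 0.86 (adjusted p = 0.146) and Lamc1 1.02 ± 0.80 (adjusted p = 0.554). Without the shallow white matter zone 1 replicate 1, 2 members passed, Lamc1 among them (2.14), and 1 passed without white matter zone 1 replicate 2, 3 or 5. Without all 3 shallow libraries of these groups 3 members passed (Agrn, Lama2 and Lamc1).

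The regions differed before injury. In uninjured IP, cortex over white matter, 2 of 24 tested members were higher and 9 lower, where 12% of all genes were higher and 15.5% lower. The median log2 fold change of the tested members was −1.81, against −0.23 over all genes. Lower in cortex were the laminin genes Lama2 and Lamc1, Agrn, Fn1, Fbln1, Bgn and the collagen genes Col11a2, Col9a3 and Col27a1, and higher were Col4a2 and Col6a1.

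Lama2, the laminin alpha 2 chain, which astrocytes and pericytes are known to deposit at brain vessels, showed the largest gap in the laminin group. It had 14.0, 18.9, 10.7, 13.8 and 10.9 CPM in uninjured cortex, against 180.1, 74.0, 36.5, 77.5 and 79.7 CPM in uninjured white matter, with no overlap and a log2 fold change of −3.24 ± 0.46 (adjusted p = 8.22e-05). Lamc1, at 36.0, 53.0, 36.7, 50.4 and 23.9 CPM in cortex and 95.4, 104, 193, 147 and 65.1 CPM in white matter, gave −2.10 ± 0.36 (adjusted p = 0.000464). Agrn, with the values given above for both regions, gave −1.68 ± 0.37 (adjusted p = 0.00281). For each of these genes the cortical libraries lay below all white matter libraries, but for Agrn the nearest libraries of the regions were almost equal.

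Col11a2, a minor fibrillar chain, had 4.00, 10.4, 1.26, 4.18 and 5.97 CPM in cortex and 42.4, 20.2, 13.1, 22.03 and 38.0 CPM in white matter, again with no overlap (−2.96 ± 0.66, adjusted p = 0.00324). Bgn (−2.92 ± 0.79), Col9a3 (−3.05 ± 0.79), Col27a1 (−3.39 ± 0.96), Fbln1 (−2.45 ± 0.78) and Fn1 (−1.65 ± 0.58) were also lower in cortex, each with overlapping libraries. In the opposite direction, Col4a2 had 25.0, 29.4, 21.5, 33.4 and 14.9 CPM in cortex and 4.45, 6.95, 4.23, 5.87 and 2.19 CPM in white matter (1.86 ± 0.62, adjusted p = 0.0355). Col6a1, the alpha 1 chain of type VI collagen, had 29.0, 34.1, 20.9, 12.5 and 17.4 CPM in cortex and 7.48, 3.16, 0.385, 0 and 0.366 CPM in white matter (2.75 ± 0.98, adjusted p = 0.0485), and neither of the 2 genes overlapped between regions.

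Several of these calls rested on few libraries. Lama2, Lamc1, Agrn, Col11a2, Bgn and Col9a3 kept theirs in each of the 10 fits that left out 1 library. Col6a1 lost its call in 8 of 10 such fits (all but those without white matter replicate 1 or 4; 2.43 to 4.11), and Fn1 in 6 (cortex replicates 1, 2, 3 and 5, white matter replicates 2 and 4; −2.24 to −1.04, the smallest change without white matter replicate 4). The number of called members was 7 without cortex replicate 1, 2 or 3. Fbln1 lost it in 5 (cortex replicates 1 to 4, white matter replicate 4; −2.79 to −1.93), Col4a2 in 4 (cortex replicates 1 to 4; 1.67 to 2.11) and Col27a1 in 1 of the 7 in which it was tested (cortex replicate 5, −3.14). Of the not passing members with the highest mean, Lamb2, the laminin beta 2 chain, gave −1.93 ± 0.78 (adjusted p = 0.0790) and Itgb1 −1.16 ± 0.65 (adjusted p = 0.205). Both passed without white matter replicate 4 (−2.21, adjusted p = 0.0196, for Lamb2 and −1.46, adjusted p = 0.0297, for Itgb1), Lamb2 also with DESeq2, and with 1 library left out Lamb2 ranged from −2.23 to −0.97 (the smallest change without white matter replicate 2) and Itgb1 from −1.46 to −0.77 (the smallest change without white matter replicate 1).

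The regions also differed in their cell markers: all 8 oligodendrocyte markers and all 5 precursor markers were lower in cortex, with oligodendrocyte markers summing to 1740.3 to 2489 (median 1917) CPM in cortex and 29837 to 51861 (median 47293) CPM in white matter, and 8 of 9 neuron markers were higher. Of 10 tested endothelial markers 1 was lower, and likewise of 12 astrocyte markers 4, of 10 microglia and macrophage markers 2 and of 6 mural markers 1, and of 3 fibroblast markers 1 was higher and 1 lower. Their part in the regional difference of the matrix genes was not tested. Among matrix receptors outside the list 1 of 14 was higher and 5 lower, led by Itgb4 at −5.51 ± 0.53 and Ddr1, a collagen-binding receptor kinase, at −4.20 ± 0.46. Among collagen-processing genes 1 of 15 was higher (Adamts3, 4.07 ± 0.99) and 3 lower, led by Plod1 at −3.47 ± 0.56. Among the further collagens and laminins Col2a1 was lower (−2.84 ± 0.97), and the other glycoproteins gave 1 higher (Npnt, 6.68 ± 1.09) and 1 lower (Emilin2, −3.37 ± 0.85) of 12.

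**Figure D5:**
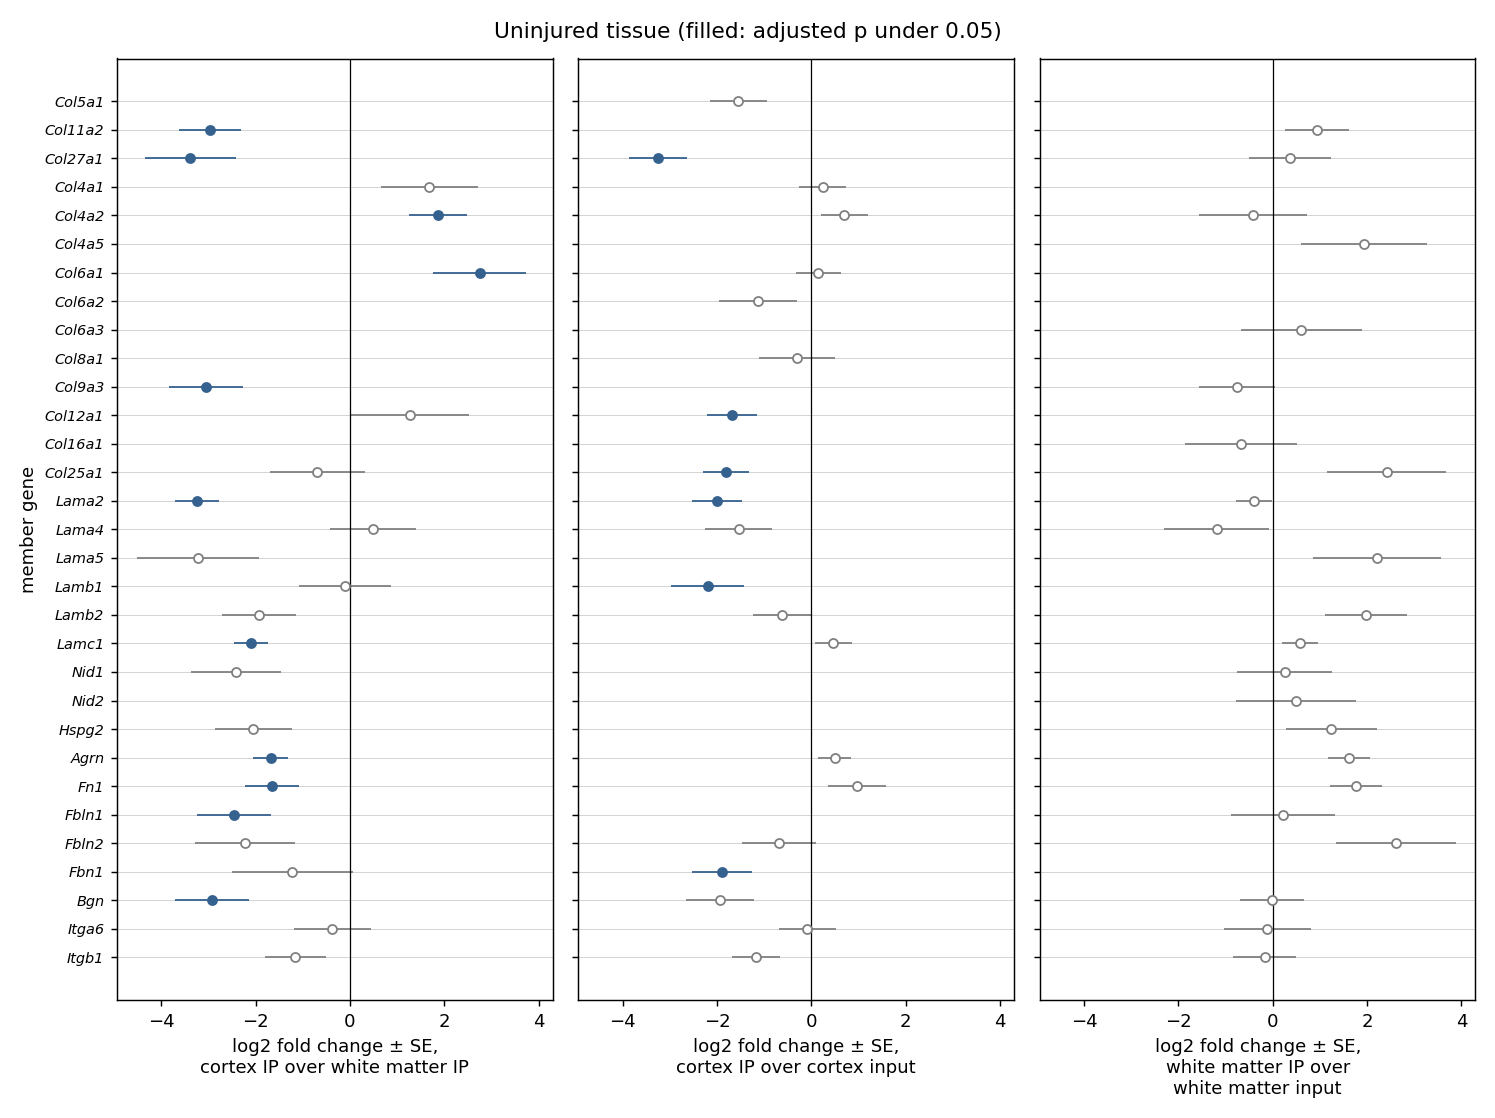
Log2 fold changes with SE in uninjured tissue for members tested: cortex IP over white matter IP (left), cortex IP over cortex input (middle) and white matter IP over white matter input (right), on a common axis; filled points passed an adjusted p of 0.05. The filled points number 11, 6 and 0, and all 6 in the middle panel are negative.

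The design text compares IP with input to assess enrichment. As the labels give IP as polyA RNA and input as total RNA, pull-down and RNA type cannot be told apart in any comparison of IP with input. In uninjured cortex, 0 of 21 tested members were higher in IP and 6 lower, where 12% of all genes were higher and 13.4% lower. Col27a1, a fibrillar collagen, showed the largest difference, with 4.00, 4.73, 4.42, 2.21 and 2.49 CPM in IP, against 54.1, 6.28, 27.1, 14.8 and 28.8 CPM in input, no overlap and a log2 fold change of −3.26 ± 0.61 (adjusted p = 0.00105). Lama2 (−2.0 ± 0.52), Col25a1 (−1.81 ± 0.48), a transmembrane collagen of neurons, the fibril-associated Col12a1 (−1.68 ± 0.52), the laminin beta chain gene Lamb1 (−2.20 ± 0.77) and the fibrillin gene Fbn1 (−1.90 ± 0.63) were lower in IP with overlap. Lamc1, at 36.0, 53.0, 36.7, 50.4 and 23.9 CPM in IP and 43.1, 15.9, 17.0, 19.9 and 16.2 CPM in input, did not pass (0.47 ± 0.40, adjusted p = 0.407), nor did Agrn (0.50 ± 0.35, adjusted p = 0.307). Of the markers, 2 of 12 for astrocytes and 3 of 9 for neurons were higher in cortex IP than in input. Of 8 oligodendrocyte markers 2 were higher and 2 lower, of 7 tested mural markers 1 was higher and 1 lower, and none of 8 endothelial or 4 fibroblast markers tested passed. Their part in these differences was not tested.

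Input replicate 1 of uninjured cortex stood apart. It held 1663 summed CPM of the 40 members, where the other 4 input libraries held 409, 449, 371 and 587. Without it, Lamb1 gave −0.74 and Col12a1 −0.94, and neither passed, while Lama2 gave −1.27 and did. Without input replicate 3, 10 members were called. Lama2 and Col25a1 kept their calls in all 10 fits that left out 1 library, and Col27a1 in the 8 in which it was tested. Lamb1 also lost its call without IP replicate 2, 3, 4 or 5 (−2.41 to −1.91), Col12a1 without IP replicate 1, 2, 4 or 5 (−1.65 to −1.49), and Fbn1 without input replicate 3 (−1.39) or any of the 5 IP replicates (−1.92 to −1.87).

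After stroke, in cortical zones 1 to 3 captured together (3 IP and 3 input libraries), 1 of 22 members was higher in IP and 1 lower, where 13.6% and 14.9% of all genes were. Agrn had 45.7, 67.1 and 55.5 CPM in IP, against 18.1, 20.1 and 29.2 CPM in input (1.09 ± 0.34, adjusted p = 0.0327). Col27a1 had 5.84, 6.58 and 4.08 CPM in IP, against 15.9, 57.7 and 7.97 CPM in input (−2.61 ± 0.78, adjusted p = 0.0265), and neither gene overlapped between IP and input. The highest members that did not pass were Lamc1 (0.45 ± 0.58) and Fn1 (0.82 ± 0.43, adjusted p = 0.172). The call of Agrn was lost without input replicate 1 (0.97) or IP replicate 1 (1.29), 2 (0.97) or 3 (1.16), and that of Col27a1 without input replicate 2 (−1.24) or IP replicate 1 (−2.59), 2 (−2.73) or 3 (−2.40). No member was called without any 1 of the 3 IP replicates, and 4 were called without input replicate 2 or 3. In white matter no member passed between IP and input, with 0 of 23 tested in uninjured tissue, where 0.603% of all genes did, and 0 of 26 after stroke, where 0% of all genes passed edgeR's test and 777 had an unadjusted p under 0.05. Members with an unadjusted p under 0.05 numbered 3 in uninjured white matter and 2 after stroke, and DESeq2 called 2 (Agrn and Fn1) and 1 (Nid2). Lama2 gave −0.39 ± 0.38 in uninjured tissue and −0.60 ± 0.70 after stroke, and Lamc1 0.58 ± 0.39 and −0.15 ± 0.80.

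The zones 1 to 3 captured together gave no member call against uninjured tissue with edgeR or DESeq2. The counts were 0 of 20 in cortex IP (0.232% of all genes called), 0 of 33 in cortex input (0.0074%), 0 of 25 in white matter IP (0.0333%) and 0 of 28 in white matter input (0.055%), while 1, 5, 1 and 2 members had an unadjusted p under 0.05. In cortex IP of this area the summed CPM of the list was 409, 453 and 432, against 405, 434, 319.8, 454 and 278 in uninjured cortex IP, so that the groups overlapped, whereas zone 1 alone ran from 735 to 1457. Lamc1 gave 0.36 ± 0.26 and Agrn 0.35 ± 0.25 in cortex IP, and Fn1 gave 0.87 ± 0.65 in white matter IP, at 108, 156 and 118 CPM in the stroke libraries and the uninjured values given above, where Lamc1 gave −0.17 ± 0.59. In cortex input Col12a1 gave −1.35 ± 0.60 and Lama2 −0.97 ± 0.68, and with 1 library left out they ranged from −1.52 to −0.65 and from −1.47 to −0.26, the smallest without uninjured input replicate 1. In white matter input Lama2 gave 0.04 ± 0.36 and Lamc1 0.55 ± 0.52. In cortex IP 1 member passed without uninjured replicate 4.

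The risen members lie on several chromosomes of GRCm38: Fn1 (ENSMUSG00000026193) on chromosome 1 from 71585520 to 71653200 and Lamc1 (ENSMUSG00000026478) on the same chromosome from 153218922 to 153332786, both on the minus strand, Hspg2 (ENSMUSG00000028763) on chromosome 4 from 137468769 to 137570630, Bgn (ENSMUSG00000031375) on chromosome X from 73483602 to 73495933, Col9a3 (ENSMUSG00000027570) on chromosome 2 from 180597790 to 180622189, Col1a2 (ENSMUSG00000029661) on chromosome 6 from 4504814 to 4541544, and Col6a2 (ENSMUSG00000020241) on chromosome 10 from 76595762 to 76623630 on the minus strand. All are annotated as protein-coding. Whether the counting used strand is not given in the sources used here, so reads in exons shared with a gene on the other strand cannot be assigned: this concerns 20.1% of the exon bases of Fbn1, 8.45% of Nid2, 6.07% of Col9a3, 3.86% of Lama2 and 2.5% of Fn1. Col4a1 and Col4a2, which are transcribed head to head, share 22 exon bases.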

How the data were processed

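The table holds raw read counts per gene for 82 libraries, as the authors deposited them; per the submitters' processing notes they refer to GRCm38/mm10. The sources used here name no aligner, counter or strandedness. Per the labels' protocols, cDNA was amplified from laser-captured, fixed tissue. From these counts 6 genes (mt-Rnr1, mt-Rnr2, Gm42418, CT010467.1, Gm23935 and Lars2) were set aside, and CPM was computed over the remainder. Each of 21 comparisons was fitted on its own groups with edgeR 4.0.16 in R 4.3.3 (TMM, filterByExpr at 10 counts and 15 in total, robust quasi-likelihood test, Benjamini-Hochberg adjustment over all genes tested, threshold 0.05); SEs are the log2 fold change over the square root of F. For 2 of the 21 comparisons only, cortical and white matter zone 1 against uninjured tissue, the edgeR fit was also run on simulated counts. There the estimated changes were set against the simulated ones. The members and gene lists were chosen with earlier results of these data known. Named genes are all members past the threshold and the 2 tested members with the highest mean that were not. Lists cover collagen processing, matrix receptors, other collagens and laminins, other matrix glycoproteins, and markers of astrocytes, neurons, oligodendrocytes and their precursors, microglia and macrophages, endothelial, mural, fibroblast and red blood cells. No 2 replicate libraries of a group agreed within sampling noise (152 pairs; chi-square over its degrees of freedom at least 3.16). Alternatives were DESeq2 1.42.0, its size factors, no low-count filter, no gene set aside, leaving out shallow or single libraries, a replicate block, and 1 fit over all IP groups of a region. One gene of the pathway lists is not reported here.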

Additional observations from a re-analysis of the deposited data

Results flagged for a closer look

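Of 75 sets of library values from groups of 4 or 5 libraries, 14 had 1 library far from the others by Dixon's test. Input replicate 1 of uninjured cortex accounts for 4 of them: its mean log2 level of the list was 4.84, where the next highest library had 3.09, its summed CPM was 1663, where the next had 587, Col12a1 was 116 CPM, where the next had 30.4, and Lamb1 was 83.4 CPM, where the next had 12.1. The remaining flags were all single high libraries. The summed CPM of the list was 953 in replicate 4 of white matter zone 3, where the next had 692, and 1484 in replicate 4 of white matter zone 4, where the next had 771. The mean log2 level was 3.11 in replicate 1 of uninjured white matter IP, where the next had 2.46. In cortical zone 1, replicate 4 was highest for Lamc1 (157 CPM, next 98.1) and Hspg2 (63.2 CPM, next 31.7). In uninjured cortex IP, replicate 4 was highest for Fn1 (71.1 CPM, next 25.99) and Bgn (12.1 CPM, next 5.47), and replicate 5 for Fbln1 (6.47 CPM, next 3.00). In uninjured white matter IP, replicate 4 was highest for Col27a1 (78.9 CPM, next 22.1) and Fn1 (148 CPM, next 56.9). The cause of these values was not tested.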

How the results depend on the processing

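The number of called members in cortical zone 1 was 7 with DESeq2 size factors, 10 with DESeq2 or without a count filter (the same 7 among them each time) and 11 in 1 fit over all IP groups, which called 2182 genes in place of 664. In cortical zone 2, where 3 were called, the count was 6 without a filter (Fn1 among them), 1 in the fit over all IP groups and 2 to 6 with 1 library left out. For zone 1 against zone 2 it was 6 without a filter, 2 with DESeq2 and 0 to 2 with 1 library left out, where 1 was called. Uninjured cortex against white matter gave 7 to 15 with 1 library left out (11 called; 7 without cortex replicate 1, 2 or 3). Cortex IP against input gave 17 without a filter and 5 to 10 with 1 library left out (6 called) in uninjured tissue, and 0 to 4 with 1 left out after stroke (2 called). Against a count of 0, white matter gave 1 without a filter in zone 2 (Col8a1), zone 3 (Col6a2) and zone 4 (Col16a1), 1 with DESeq2 in zones 2 and 4, 2 with DESeq2 for uninjured IP against input and 1 after stroke. Cortical zones 1 to 3 IP against uninjured IP gave 0 to 1 with 1 library left out, and the regional difference in response 1 without a filter, 3 with DESeq2, 3 without shallow libraries and 0 to 2 with 1 left out. Scaled to all counts, the list's mean log2 difference from uninjured cortex moved to 0.39 in zone 4 (0.0013 over counts outside the 6 genes) and reversed to 0.21 in zone 5 (−0.25). It was 1.17 in zone 1 (0.88), 0.28 in zone 2 (0.53) and 0.31 in zone 3 (0.11), and from uninjured white matter 0.13, 0.027, −0.26, −0.076 and −0.26 in zones 1 to 5 (0.29, 0.44, −0.54, −0.27 and −0.37).

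With DESeq2 size factors the median log2 fold change of all genes was −0.08 (−0.23 with TMM) for uninjured cortex against white matter, where 2 members were higher and 8 lower, and 0.26 (0.12 with TMM) in white matter zone 3. It was 0.19 (0.04 with TMM) in white matter zone 1, with 31 genes higher and 1 lower (40 and 7 with TMM), and −0.17 (0.08 with TMM) for the regional difference in response, with 74 higher and 196 lower (124 and 150 with TMM). Reversals among named genes touched no called value. Agrn reversed in cortical zone 4 without a filter (0.038), in white matter zones 3 and 4 with the replicate block (−0.64 and −0.62) and in zone 5 without shallow libraries (−1.99) or with the block (−1.53). Lamc1 reversed in white matter zone 1 without shallow libraries (−0.76) or with the block (−0.42). Lama2 in white matter input reversed without a filter (−0.0067) and with the block (−0.0014). With 1 library left out, Agrn ranged from −0.080 to 0.21 for cortical zone 1 against zone 2, −0.049 to 0.18 in cortical zone 3, −0.17 to 0.090 in zone 4, and −0.83 to 0.81, −1.24 to 0.74 and −1.99 to 0.78 in white matter zones 3 to 5. Lamc1 ranged from −0.077 to 0.18 in cortical zone 4, −0.22 to 0.039 in zone 5, −0.95 to 0.53 in white matter zone 1, −0.017 to 0.35 in zone 4, −0.014 to 1.49 for cortical and −0.96 to 0.59 for white matter IP against input after stroke, −0.93 to 0.13 for white matter zones 1 to 3 IP and −0.23 to 0.96 for its input against uninjured, where Lama2 ranged from −0.36 to 0.21. In no comparison did every same-numbered pair of libraries pass the correlation limit used for pairing. This does not show that same-numbered libraries are unrelated. For cortical zone 1 against zone 2 their correlations ran from −0.0075 to 0.17, and 3 of 5 correlated best with their own number. With the replicate numbers as a block 6 members were called in cortical zone 1 (Col6a2 was lost) and 3 in zone 2 (Hspg2 kept, Fn1 and Nid1 gained). The block gave 9 in uninjured cortex against white matter and 4 in uninjured cortex IP against input. The cause of these changes was not tested. In the white matter IP groups 42 to 76 of 200 member values were 0.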
